A study of Rattus norvegicus with 6 samples.

Results

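The genes described here are 10 members of the Notch pathway and of the transcription factors that follow its decisions in the intestinal epithelium, chosen by name from the 28282 gene symbols of the deposited matrices: the receptors Notch1 and Notch2, the ligands Dll1, Dll4 and Jag1, the Notch target Hes1, the secretory factors Atoh1 and Gfi1, and the intestinal factors Hnf4a and Cdx2. Single-nucleus RNA sequencing was performed on the ileum of 6 male Sprague–Dawley rats aged 6 weeks, with 1 library per rat. In the 3 rats with severe acute pancreatitis (SAP), 3% sodium taurocholate was infused into the pancreatic duct at 0.1 mL per 100 g of body weight, and the ileum was taken 24 h later. The 3 control (CON) rats had a sham laparotomy without infusion, so the infusion into the duct, the agent and the pancreatitis cannot be told apart in this design. The rats were of wild-type genotype, and both groups were kept without food but with water after surgery.

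Notch receptors are cut when a ligand on a neighbouring cell binds them, and the freed intracellular part joins the DNA-binding protein RBPJ to switch on targets such as Hes1. In the intestinal crypt, HES1 represses Atoh1. Cells in which Notch is active therefore keep dividing or become absorptive enterocytes, while cells that escape the signal express Atoh1, present Delta ligands to their neighbours and become goblet, Paneth or enteroendocrine cells.

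RBPJ is the DNA-binding partner of all Notch receptors, so the promoters of the members were searched for its motif, and the 2 that hold it are shown. RefSeq promoter entries (rat build GRCr8) were found for 9 of the 10 genes, in 10 entries of 250 bases before and 50 bases after the start site; none was found for Dll4. The motif searched was GTGGGAA, whose reverse complement is TTCCCAC, on both strands. It occurred in 6.29% of all 33469 promoters and, among the members, in those of Hes1 and Dll1. The 250 bases upstream of each start site are given 5′ to 3′ on the gene's strand, with the motif in capitals:

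Hes1 (chr11:84213046-84213295, minus strand): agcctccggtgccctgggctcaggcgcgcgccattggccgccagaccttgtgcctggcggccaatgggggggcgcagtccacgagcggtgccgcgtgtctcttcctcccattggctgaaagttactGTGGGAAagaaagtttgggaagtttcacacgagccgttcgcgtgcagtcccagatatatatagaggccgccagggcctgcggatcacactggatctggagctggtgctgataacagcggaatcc

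Dll1 (chr1:64993275-64993524, minus strand): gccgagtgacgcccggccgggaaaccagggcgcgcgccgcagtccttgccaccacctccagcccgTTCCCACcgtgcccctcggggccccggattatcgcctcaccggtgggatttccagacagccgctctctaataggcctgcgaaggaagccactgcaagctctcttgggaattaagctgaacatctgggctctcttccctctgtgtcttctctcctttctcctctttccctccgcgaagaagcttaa

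In Hes1 the motif began 124 bases before the start site and read along the gene's strand, and in Dll1 it began 185 bases before it and read on the opposite strand. The N-box CACNAG, to which HES1 itself binds, was searched on both strands in the same windows and lay in 43.1% of all promoters. Among the members it was present in those of Hes1, Notch1, Atoh1, Gfi1 and Hnf4a. It lay at 4 places each in Hes1 and Notch1, at 2 in Gfi1 and at 1 each in Atoh1 and Hnf4a. These matches are letters in a window, and binding was not measured.

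After quality control 40970 of 90461 barcodes remained, from 3189 to 9246 per library, with 5549260 to 28771508 unique molecular identifiers (UMIs, counted RNA molecules) per library. CON replicate 2 and SAP replicate 1 listed barcodes below 1000 UMIs and the other 4 libraries did not. The median mitochondrial share of a nucleus was 0.125% to 0.700% in CON and 0.387% to 1.84% in SAP. Paneth marker RNA stood apart in CON replicate 1 and SAP replicate 1, with a summed level of 49765 and 29776 CPM over all nuclei (CPM, UMIs of a gene scaled to a common library total) against 2724 to 4643 CPM in the others. Barcode names are running numbers, and the 5398 names that occur in more than 1 library do not mark shared nuclei. The nuclei were grouped without the members into 16 classes named from markers and 5 numbered clusters, of which 9 groups, with 31262 nuclei, were epithelial. The crypt class is called stem/TA-like because its nuclei carried stem and transit-amplifying markers together. Cluster 1 had Ceacam20 and Slc26a3 among its leading genes and was closest in profile to enterocyte-like nuclei. Cluster 5 was led by ribosomal protein genes and was closest to Paneth-like nuclei, with the Paneth marker Mmp7 at 487 CPM. It made up 17.9% of epithelial nuclei in CON replicate 1 and 20.3% in SAP replicate 1, against 4.32% to 8.74% in the others. Cluster 9 carried the highest Lgr5 level (377 CPM) and was closest in profile to goblet-like nuclei. Of the Paneth markers, Habp2 was at 502 CPM and Mmp7 at 682 CPM in cluster 9. In Paneth-like nuclei Habp2 was lower, at 107 CPM, and Mmp7 higher, at 1630 CPM.

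All 10 members were detected in every library, in total from 1157 UMIs for Dll1 to 47562 UMIs for Hnf4a. The receptors and Hes1 had their highest epithelial level in the crypt class, and Dll1, Atoh1 and Gfi1 in the secretory groups. Hnf4a and Cdx2 were spread over the whole epithelium. The levels by class that follow are CPM of UMIs summed per library and class, given as the mean over the 6 libraries, and are a description without a test, since the classes were built from the same nuclei. They are not compared between genes.

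**Figure D1:**
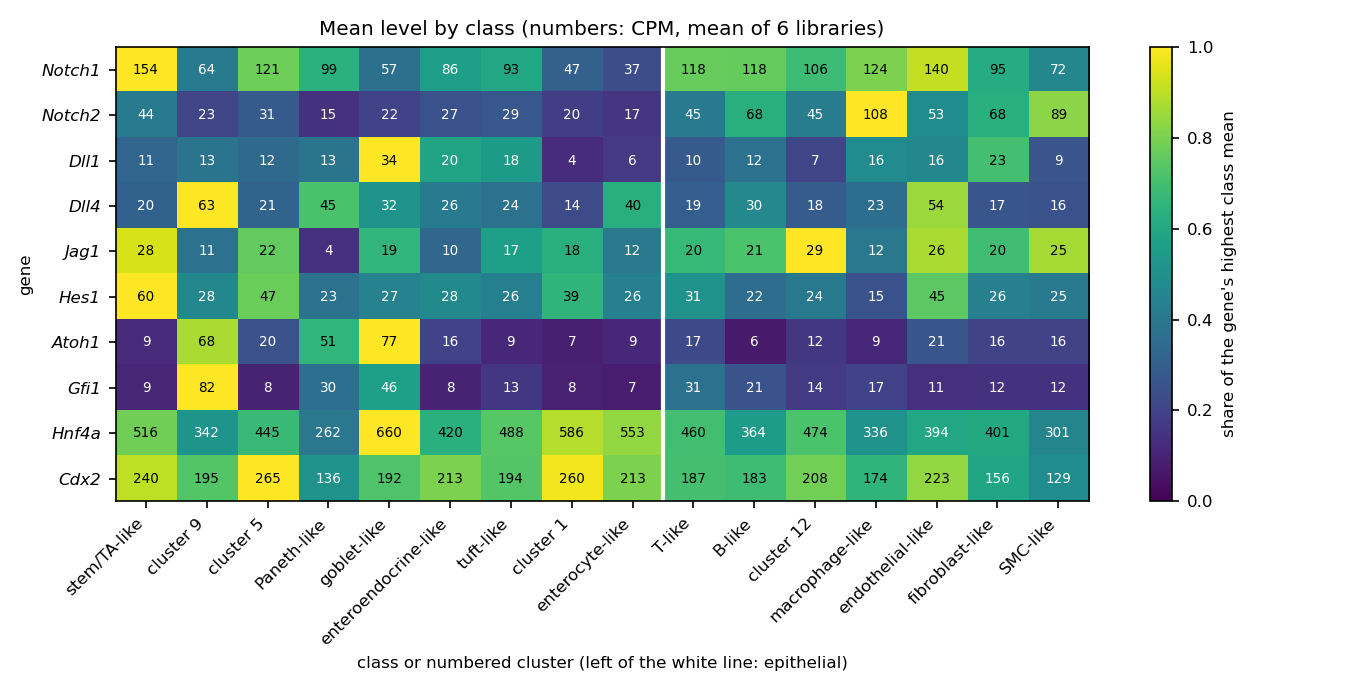
Mean level of each of the 10 genes (rows) in each class or numbered cluster (columns; epithelial groups left of the white line); the printed numbers are CPM as the mean of 6 libraries and the colour is the share of the gene's own highest class mean. Notch1 and Hes1 are strong in the stem/TA-like column, Atoh1 and Gfi1 in goblet-like and cluster 9, and Hnf4a is strong in most epithelial columns (660 CPM in goblet-like) and in T-like nuclei (460 CPM).

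Among the receptors, Notch1 had a mean of 154 CPM in stem/TA-like nuclei (SD 32.7, range 103 to 196). It lay above the enterocyte-like level of 36.7 CPM in 6 of 6 libraries, with a ratio of means of 4.21 and no overlap of the ranges, and above the goblet-like level of 56.7 CPM in 6 of 6. Endothelial-like nuclei (140 CPM) were not separated from stem/TA-like nuclei, which lay higher in 3 of 6 libraries, and macrophage-like (124 CPM), cluster 5 (121 CPM) and T-like nuclei (118 CPM) followed. Notch2 followed another order. Macrophage-like nuclei were at 108 CPM and smooth muscle (SMC-like) nuclei at 89.3 CPM, with 44.1 CPM in stem/TA-like and 16.9 CPM in enterocyte-like nuclei. B-like nuclei lay above stem/TA-like nuclei in 6 of 6 libraries (ratio of means 1.55, overlapping ranges). They were not separated from fibroblast-like nuclei, being higher in 3 of 6. Within the epithelium both receptors thus stood higher in the crypt class than in enterocyte-like nuclei, Notch2 with a ratio of means of 2.61, in 6 of 6 libraries.

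The 3 ligands differed in where they were found. Dll1, the Delta ligand of early secretory cells, was highest in goblet-like nuclei (33.5 CPM, SD 10.8), above stem/TA-like (10.97 CPM) and enterocyte-like nuclei (5.54 CPM) in 6 of 6 libraries each. The next classes in order, fibroblast-like (23.5 CPM) and enteroendocrine-like (19.5 CPM), lay below goblet-like in 5 of 6. Dll4, the Delta ligand of secretory and endothelial cells, reached 63.3 CPM in cluster 9, 53.9 CPM in endothelial-like and 45.2 CPM in Paneth-like nuclei. Enterocyte-like nuclei also carried Dll4, at 40.0 CPM, against 14.4 CPM in cluster 1. Their range was 15.2 to 63.3 CPM, so the place of enterocytes in this order depended on the library. Jag1, a ligand of the Serrate type, had no such peak. Cluster 12, outside the epithelium, was at 29.4 CPM, and stem/TA-like nuclei were at 27.7 CPM with a range of 6.41 to 54.9 CPM. Endothelial-like nuclei were at 25.7 CPM, SMC-like nuclei at 25.4 CPM and Paneth-like nuclei at 3.99 CPM. Paneth-like nuclei made up only 0.467% to 4.98% of the epithelial nuclei of a library. In that class 3 members had enough counts for a fit, and Dll4, Jag1 and Atoh1 were not among them.

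Hes1, the repressor that Notch switches on, was at 60.1 CPM in stem/TA-like nuclei (SD 19.8, range 40.4 to 94.6), at 46.6 CPM in cluster 5, at 44.96 CPM in endothelial-like nuclei and at 39.3 CPM in cluster 1. The stem/TA-like level lay above endothelial-like nuclei in 5 of 6 libraries and above goblet-like (26.7 CPM) and enterocyte-like nuclei (26.2 CPM) in 6 of 6 libraries. It also lay above cluster 9, the group with the highest Lgr5 level, in 6 of 6, with a ratio of means of 2.14 and overlapping ranges. Hes1 and Atoh1 thus had different leading classes. Atoh1, which commits crypt cells to the secretory lineages, stood at 77.5 CPM in goblet-like nuclei (SD 36.0), 67.8 CPM in cluster 9 and 50.9 CPM in Paneth-like nuclei, and at 9.21 CPM in stem/TA-like and 8.86 CPM in enterocyte-like nuclei. Goblet-like nuclei lay above stem/TA-like nuclei in 6 of 6 libraries with a ratio of means of 8.42, while goblet-like and cluster 9 were not separated (4 of 6). Gfi1, a zinc-finger repressor that acts with Atoh1 in goblet and Paneth cells, was highest in cluster 9 (82.1 CPM), then in goblet-like (46.3 CPM) and T-like nuclei (31.0 CPM), where it is also a known T cell factor. Enteroendocrine-like nuclei, which are secretory too, carried 15.7 CPM of Atoh1 and 8.11 CPM of Gfi1.

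Hnf4a, a nuclear receptor of enterocyte and general epithelial identity, was at 660 CPM in goblet-like nuclei, 586 CPM in cluster 1 and 553 CPM in enterocyte-like nuclei. Goblet-like and cluster 1 were not separated (4 of 6 libraries), and Paneth-like nuclei were lower, at 262 CPM, in 6 of 6. Cdx2, the homeobox factor that sets intestinal identity, ranged from 136 CPM in Paneth-like nuclei to 265 CPM in cluster 5 within the epithelium, a ratio of means of 1.96 with no overlap of the ranges. The 7 epithelial groups between them lay from 192 to 260 CPM. Both factors were also measured in T-like nuclei, Hnf4a at 460 CPM and Cdx2 at 187 CPM, although lymphocytes are not known to use them.

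The level in lymphocyte nuclei was set beside the epithelial level of each gene. In T-like and B-like nuclei together, the level as a median percentage of the epithelial level of the same library was 84.1% for Hnf4a, 83.3% for Cdx2, 74.7% for Hes1, 70.5% for Atoh1, 79.0% for Dll4, 93.8% for Jag1 and 98.8% for Dll1. The part of free RNA in these values was not tested. Against T-like nuclei, goblet-like Atoh1 (T-like 17.0 CPM) and goblet-like Dll1 (T-like 9.53 CPM) lay higher in 6 of 6 libraries with no overlap of the ranges. Stem/TA-like Hes1 (T-like 30.8 CPM), cluster 9 Dll4 and goblet-like Hnf4a also lay higher in 6 of 6 libraries, but with overlapping ranges. Stem/TA-like Jag1 lay above T-like Jag1 in 4 of 6 libraries, which does not separate them. The corresponding percentages of Notch1 (141%), Notch2 (183%) and Gfi1 (186%) were above 100% in every library. T cells are known to use these 3 genes, and how much of their level is the nuclei's own was not tested. Notch2 was higher in B-like than in T-like nuclei in 5 of 6 libraries, with a ratio of means of 1.52.

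Single goblet-like nuclei were searched for both secretory factors after thinning each nucleus to 1200 UMIs. Of the 323 goblet-like nuclei with an Atoh1 UMI, 9.29% also had a Gfi1 UMI (95% exact interval 6.35 to 13.0), against 4.78% of those without (4.09 to 5.55), and the share was higher with Atoh1 in 6 of 6 libraries. In cluster 9 the shares were 11.5% and 9.72%, higher with Atoh1 in 2 of 6 libraries. For Hes1 in stem/TA-like nuclei the shares were 5.05% of 99 nuclei with an Atoh1 UMI and 5.88% of those without, a difference not detectable at this depth. The intervals cover counting error only, and the counts are sparse.

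The profiles over all 21 classes and clusters were correlated on the log2(CPM + 1) scale to name the genes most like each member, as a description over 21 points that share their libraries and free RNA, 5 of them with fewer than 10 nuclei in a library. Notch1 was most like the genes Polq (Pearson r = 0.82), Apold1 and Ect2, and Notch2 like Adam19 (0.82), Ogfrl1 and Qki. For the ligands these were Sh3bgrl2 (0.90), B4galnt2 and Slc4a7 for Dll1, Nudt14 (0.88), Dyrk2 and Zfp707 for Dll4, and Lamp3 (0.84), Toe1 and Nfil3 for Jag1. Hes1 was most like Sumf2 (0.90), Dolk and Vcpkmt. Atoh1 was most like Rab3d (0.92), LOC102555690 and LOC103691871, and Gfi1 like the secretory factor Creb3l4 (0.91), LOC108350772 and Sytl1. Hnf4a followed Baiap2l1 (0.96), Vrk3 and Lgals2, and Cdx2 followed Golt1a (0.97), Sdc1 and Nlrp1b. Between members, r was 0.87 for Hnf4a with Cdx2, and 0.78 for Cdx2 with both Dll4 and Hes1. Atoh1 had r of 0.76 with Dll4, 0.71 with Dll1 and 0.69 with Gfi1. Hnf4a had similar values with Dll4 (0.70) and Dll1 (0.69), so these ligands were not particular to Atoh1. For Hes1 with Atoh1, r was 0.49.

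Whether SAP altered these genes was asked first of the UMIs summed over all epithelial nuclei of each rat, as TMM-normalized CPM (library totals adjusted by edgeR's trimmed mean of M-values). Library values are given in the order of replicates 1, 2 and 3. A gene was called at an adjusted p under 0.05 (edgeR quasi-likelihood test, Benjamini-Hochberg over all genes) with a log2 fold change of at least 0.5 in size. None of the 10 members was called by edgeR (0 of 10, where 0% of 17093 genes were called), 1 of 10, Notch1, had an unadjusted p under 0.05 (11.5% of all genes did), and DESeq2 called 0 of 10 where it called 1.85% of all genes. The median log2 fold change of the members was −0.38, against −0.0047 over all genes. In such sums, fewer nuclei of a class and less RNA per nucleus cannot be told apart.

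Notch1 was measured at 147, 92.6 and 81.8 CPM in the CON libraries and at 70.3, 37.3 and 68.6 CPM in the SAP libraries. Every SAP library lay below every CON library. The log2 fold change was −0.87 ± 0.33 (SE, n = 3 per group) with an edgeR adjusted p of 0.408. It was the 1 member of 10 whose groups did not overlap with SAP below, while 12.6% of all genes did so, and no member lay wholly above in SAP, against 6.68% of all genes. Notch2 stood at 33.2, 25.1 and 28.1 CPM in CON and at 23.1, 12.1 and 30.5 CPM in SAP, so SAP replicate 3 lay inside the CON range (log2 fold change −0.40 ± 0.36, edgeR adjusted p 0.695).

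The ligands had negative estimates within a wide spread. Dll4 was at 43.5, 35.1 and 22.5 CPM in CON and at 17.5, 16.6 and 29.0 CPM in SAP, with a log2 fold change of −0.68 ± 0.35 and an edgeR adjusted p of 0.489. Dll1 was at 13.5, 14.5 and 9.34 CPM against 12.3, 6.58 and 10.4 CPM (−0.36 ± 0.35, edgeR adjusted p 0.709). For Jag1 the CON libraries were close together at 20.7, 22.5 and 18.9 CPM, while the SAP libraries lay on both sides of them at 11.3, 10.3 and 27.0 CPM (−0.34 ± 0.40, edgeR adjusted p 0.769). In each of the 3 ligands the groups overlapped.

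Hes1 had a positive estimate. Its levels were 37.1, 37.8 and 23.6 CPM in CON and 47.0, 50.5 and 33.3 CPM in SAP, where SAP replicate 3 lay inside the CON range, and the log2 fold change was 0.41 ± 0.28 with an edgeR adjusted p of 0.603. Atoh1 was at 39.0, 27.2 and 14.2 CPM in CON and at 27.8, 10.9 and 14.7 CPM in SAP (−0.61 ± 0.47, edgeR adjusted p 0.646). After TMM normalization CON replicate 1 and SAP replicate 1, the libraries with high Paneth marker RNA, carried the highest Atoh1 of their groups. In CPM without TMM, CON replicate 2 (29.8) lay above CON replicate 1 (28.7), and SAP replicate 1 (24.5) stayed the highest of SAP. The part of Paneth marker RNA in this was not tested. Gfi1 was at 20.2, 28.9 and 12.4 CPM in CON and at 14.6, 10.5 and 8.93 CPM in SAP, with a log2 fold change of −0.86 ± 0.38 and an edgeR adjusted p of 0.443. The Gfi1 groups overlapped only in that CON replicate 3 lay below SAP replicate 1.

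The intestinal identity factors differed least. Hnf4a was at 471, 520 and 474 CPM in CON and at 512, 696 and 451 CPM in SAP (0.18 ± 0.23, edgeR adjusted p 0.781). Cdx2 was at 272, 199 and 174 CPM in CON and at 247, 302 and 177 CPM in SAP (0.17 ± 0.27, edgeR adjusted p 0.832). SAP replicate 2 was the highest library for both genes, and without it the estimates were −0.0020 and −0.0027.

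**Figure D2:**
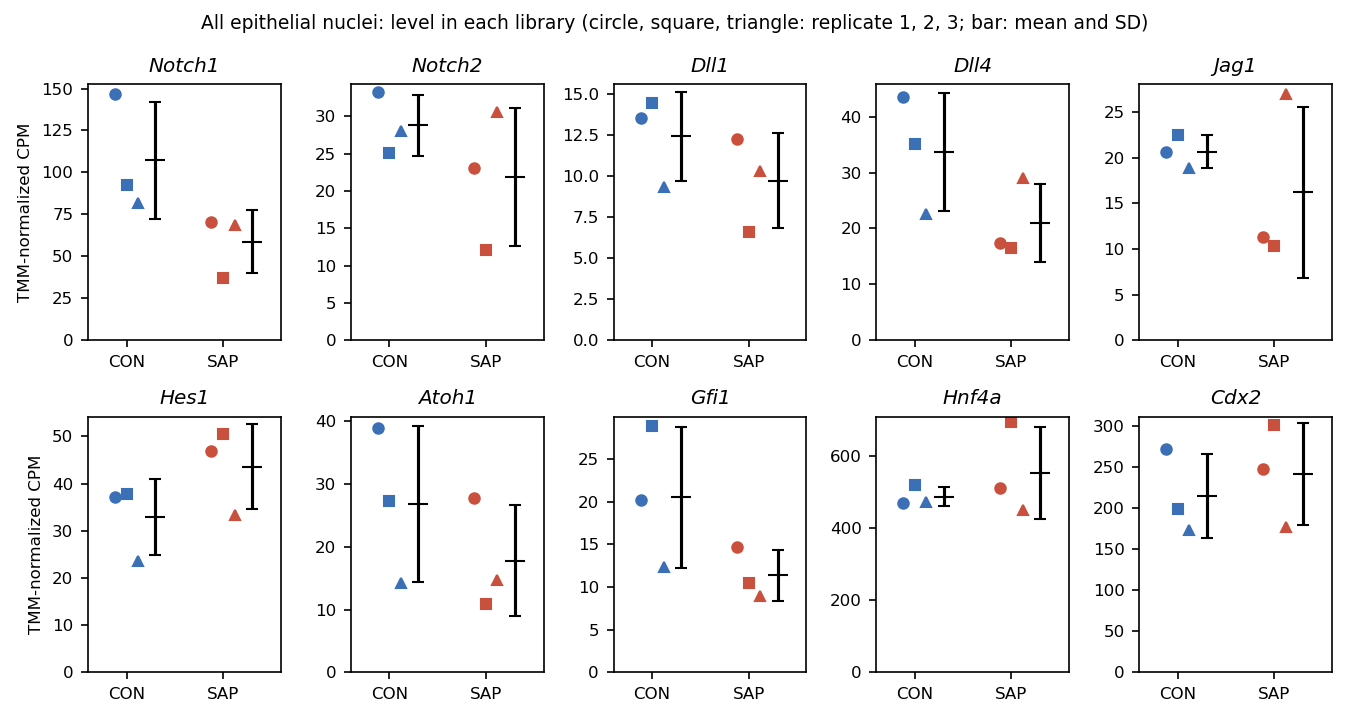
Level of each member in the sum over all epithelial nuclei, as TMM-normalized CPM (vertical axis, from 0), for CON and SAP libraries; symbols are replicates and bars give the mean and SD of 3 rats. The Notch1 points of SAP (37.3 to 70.3 CPM) all lie below those of CON (81.8 to 147 CPM), and the groups of the other 9 genes overlap.

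The sum over all nuclei gave the same counts: edgeR called 0 of 10 members (0% of 19187 genes), Notch1 alone had an unadjusted p under 0.05 (8.43% of all genes did), and DESeq2 called 0 of 10 where it called 1.12% of all genes. Notch1 was again without overlap, at 151, 98.8 and 83.3 CPM in CON and 78.7, 43.0 and 74.7 CPM in SAP (−0.76 ± 0.33, edgeR adjusted p 0.585). For comparison, 9.06% of all genes lay wholly below and 4.9% wholly above in SAP.

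Of the 9 epithelial groups, 3 had shares of nuclei that did not overlap between CON and SAP. Stem/TA-like nuclei made up 34.6%, 43.8% and 31.3% of epithelial nuclei in CON and 18.3%, 7.30% and 26.8% in SAP, and cluster 9 made up 4.603%, 5.55% and 6.32% against 2.63%, 1.47% and 3.41%. Enterocyte-like nuclei made up 12.0%, 10.2% and 18.3% of the CON libraries' epithelium and 27.5%, 47.5% and 23.5% of that of the SAP libraries. In these 3 groups the CON and SAP libraries did not overlap. The other groups overlapped, among them goblet-like nuclei at 11.4%, 16.0% and 14.5% in CON and 8.92%, 5.94% and 14.1% in SAP. No test was run on the shares. In the paper, the trends of its own stem cell, TA1 and enterocyte classes were not significant at the sample level.

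The levels at fixed class shares below are CPM without TMM, so they differ from the TMM-normalized sums above in scaling too. In CPM without TMM, epithelial Notch1 was at 108, 101 and 97.5 in CON and 61.9, 35.3 and 84.5 in SAP, without overlap. Hes1 was at 27.3, 41.3 and 28.1 against 41.3, 47.9 and 41.1, with overlap, and Atoh1 at 28.7, 29.8 and 16.9 against 24.5, 10.3 and 18.1. To set the class shares aside, the level of each member was averaged over the 9 epithelial groups with every group held at its mean CON share. Hes1 was the 1 member of 10 that did not overlap, where 10.7% of all genes of the epithelial fit did not, with 30.4, 40.8 and 30.6 CPM in CON and 44.6, 62.3 and 46.8 CPM in SAP, a log2 ratio of the means of 0.60. The exact two-sided permutation p was 0.1, the smallest that 3 against 3 rats allow, and 0.6 after adjustment over the 10 members. Notch1 did overlap at fixed shares, at 125, 101 and 113 CPM against 75.5, 62.6 and 103 CPM (log2 ratio −0.49, exact permutation p 0.2). With the SAP shares as weights Notch1 and Hes1 did not overlap (9.85% of all genes), and the log2 ratio of Notch1 was −0.61. Dll1 and Atoh1 had nearly equal means at fixed shares, 12.7 CPM in CON and 13.0 CPM in SAP for Dll1 and 24.3 CPM and 22.6 CPM for Atoh1, each with overlapping groups. The 6 remaining members also overlapped, with log2 ratios from −0.59 for Dll4 to 0.19 for Cdx2. The number of members without overlap was 6 without SAP replicate 3, where 28% of all genes did not overlap, and 2 without CON replicate 2 (14.8% of all genes) or SAP replicate 1 (19.7%), in place of 1.

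**Figure D3:**
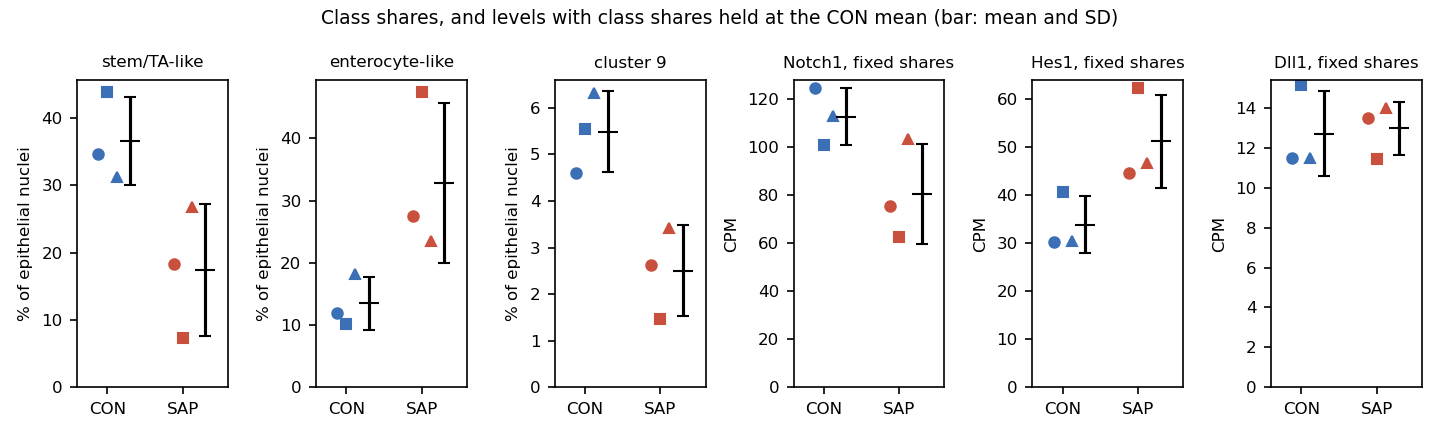
Shares of epithelial classes (percent of epithelial nuclei) and levels of Notch1, Hes1 and Dll1 with class shares held at the CON mean (CPM), per library in CON and SAP, with the mean and SD of 3 rats. At fixed shares the SAP values of Hes1 (44.6 to 62.3 CPM) lie above those of CON (30.4 to 40.8 CPM), and those of Notch1 overlap.

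Within the single classes, 102 pairs of a member and a class could be fitted in 16 groups. The library values of these pairs, like those over all nuclei, are TMM-normalized CPM and differ from the CPM by class given earlier. edgeR called 0 of 102 (0.0175% of all gene and class pairs were called), 11 (10.8%, against 7.85% of all pairs) had an unadjusted p under 0.05, and DESeq2 called 0 against 0.562% of all pairs. SAP lay wholly below CON in 7 pairs (6.86%, background 7.85%) and wholly above in 6 pairs (5.88%, background 6.08%), so neither share stood above the background. The lowest adjusted p was 0.218, for Notch1 in cluster 1.

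Of the 7 pairs with SAP below, 5 were Notch1. In cluster 1, the Ceacam20 and Slc26a3 group, Notch1 was at 74.4, 55.0 and 62.6 CPM in CON and at 31.2, 30.8 and 34.2 CPM in SAP, with a log2 fold change of −0.99 ± 0.23 (9.77% of genes there were wholly below). This pair was called where low-count genes were kept in the fit, with an edgeR adjusted p of 0.0259, and had a DESeq2 adjusted p of 0.0696. In cluster 1 the main edgeR fit called 0.00899% of all genes and DESeq2 called 1.7%. The share of all genes called with low-count genes kept is not given here, so that call has no background beside it. Goblet-like Notch1 was at 111, 61.0 and 59.6 CPM against 26.7, 29.2 and 57.1 CPM (−0.95 ± 0.37, edgeR adjusted p 0.511, background 8.55%). In tuft-like nuclei Notch1 was at 191, 108 and 123 CPM against 37.5, 52.8 and 96.1 CPM (−1.10 ± 0.38, edgeR adjusted p 0.375, background 7.88%).

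Cluster 5 and SMC-like nuclei completed these pairs, with Notch1 estimates of −0.66 ± 0.26 (background 8.1%) and −0.57 ± 0.33 (background 10.5%). In stem/TA-like nuclei, where the receptor was highest, the groups overlapped, with 214, 145 and 168 CPM in CON and 146, 108 and 156 CPM in SAP (−0.36 ± 0.22, edgeR adjusted p 0.703). T-like nuclei, which lie outside the epithelium, had a Notch1 estimate of −0.44 ± 0.30 with overlapping groups. Whether the Notch1 difference varies between classes was not tested. The remaining 2 pairs below were Notch2 in goblet-like nuclei, at 29.8, 23.9 and 35.1 CPM against 8.0, 13.8 and 20.5 CPM (−0.94 ± 0.38, edgeR adjusted p 0.521), and Atoh1 in cluster 9. There Atoh1 was at 76.4, 158 and 59.5 CPM in CON and 48.7, 33.4 and 51.6 CPM in SAP (−1.10 ± 0.44, edgeR adjusted p 0.469, background 8.51%).

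Hes1 made up 3 of the 6 pairs with SAP above. In stem/TA-like nuclei it was at 44.1, 55.1 and 41.6 CPM in CON and at 61.7, 99.2 and 63.0 CPM in SAP (0.65 ± 0.26, edgeR adjusted p 0.618, background 5.89%). Cluster 1 had 35.3, 35.8 and 27.4 CPM against 56.2, 48.5 and 39.1 CPM (0.54 ± 0.25, background 8.27%). In both the lowest SAP library lay above the highest CON library. T-like nuclei showed the same order, with 27.2, 22.4 and 22.7 CPM in CON and 35.9, 52.4 and 31.0 CPM in SAP (0.71 ± 0.33, edgeR adjusted p 0.722, background 5.04%), so the order of the groups was the same outside the epithelium; the part of free RNA in this was not tested. In enterocyte-like nuclei Hes1 was at 17.0, 22.8 and 16.5 CPM against 33.1, 45.6 and 21.9 CPM, with overlap through SAP replicate 3 (0.86 ± 0.34, edgeR adjusted p 0.762).

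Dll1 in stem/TA-like nuclei was the second member there with SAP above, at 10.2, 6.23 and 6.49 CPM in CON and 13.1, 16.8 and 13.7 CPM in SAP (0.91 ± 0.37, edgeR adjusted p 0.632), on 150 UMIs in all. In goblet-like nuclei, where Dll1 is highest, the groups overlapped with an estimate of −0.52 ± 0.33. The remaining pairs above were Hnf4a in enterocyte-like nuclei, at 517, 469 and 538 CPM against 545, 678 and 567 CPM (0.23 ± 0.22, background 5.44%), and Cdx2 in enteroendocrine-like nuclei (0.36 ± 0.27, background 5.64%). Goblet-like Atoh1 was at 87.1, 71.7 and 45.8 CPM in CON and 163, 64.5 and 51.9 CPM in SAP, where SAP replicate 1 was the highest of the 6 libraries (0.38 ± 0.44, edgeR adjusted p 0.836). Gfi1 in goblet-like nuclei had an estimate of −0.26 ± 0.49 and overlapped as well.

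**Figure D4:**
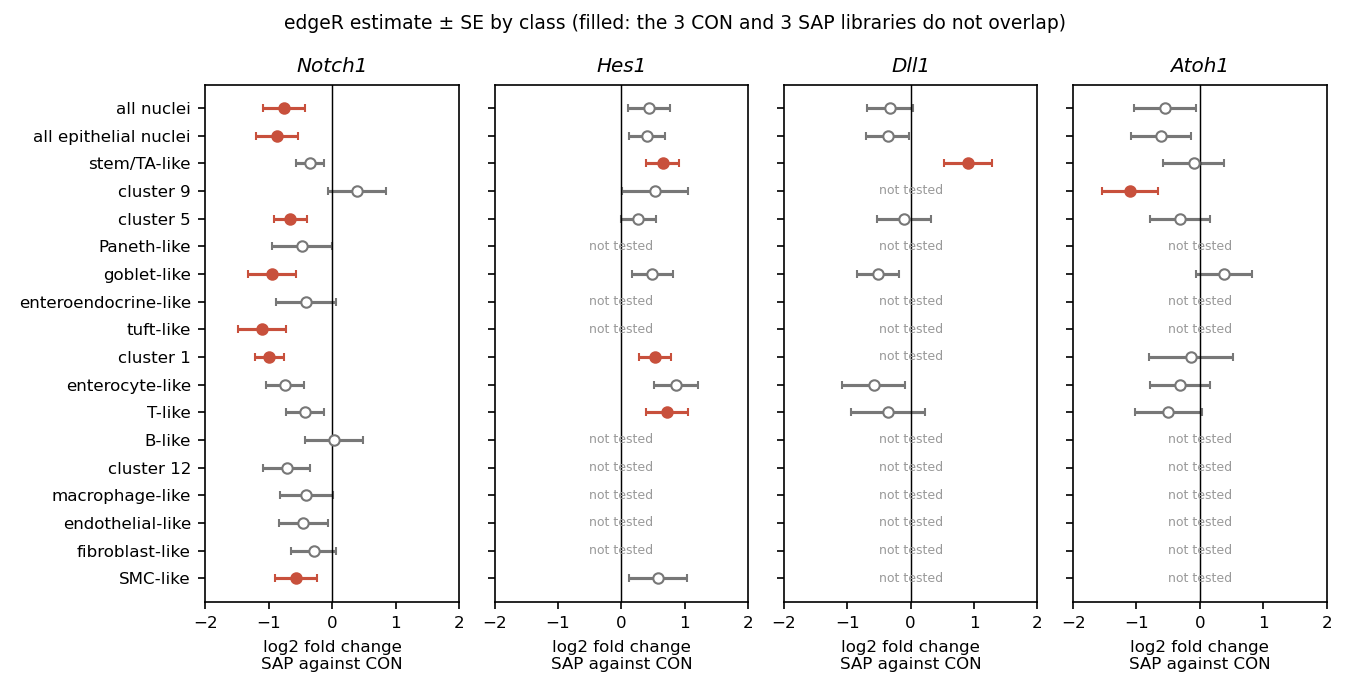
edgeR log2 fold change of SAP against CON with its SE (horizontal axis) by class (vertical axis) for Notch1, Hes1, Dll1 and Atoh1; filled points mark pairs whose 3 CON and 3 SAP libraries do not overlap. Filled Notch1 points lie left of 0, at −0.57 to −1.10, and filled Hes1 points right of 0, at 0.54 to 0.71; none was called.

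The number of nuclei with a transcript was examined next, with each nucleus thinned to 1200 UMIs. A Notch1 UMI was found in 13.2%, 10.5% and 10.3% of epithelial nuclei in CON and in 7.11%, 3.88% and 9.44% in SAP, without overlap (exact two-sided permutation p 0.1, adjusted 0.5). The share in T-like and B-like nuclei, 9.02% to 17.2%, was above the epithelial share in all 6 libraries. Gfi1 likewise did not overlap, at 2.17%, 3.11% and 1.74% against 1.35%, 1.10% and 1.36% (exact permutation p 0.1, adjusted 0.5). It too was higher in T-like and B-like nuclei, at 1.43% to 4.61%, in all 6 libraries. These were 2 of 10 members, where 14.7% of all genes did not overlap in this measure. Without SAP replicate 3 the shares of 7 members did not overlap, where 34.9% of all genes did not. With all UMIs of each nucleus Gfi1 alone did not overlap (10% of all genes), and Notch1 overlapped, at 22.7%, 15.1% and 16.8% in CON and 9.39%, 7.50% and 15.7% in SAP. At 1200 UMIs, Hes1 was found in 3.84%, 4.68% and 3.23% in CON against 4.59%, 5.30% and 4.605% in SAP. These groups overlapped (exact permutation p 0.3, adjusted 0.667). The Hes1 share lay above that in T-like and B-like nuclei (2.37% to 4.89%) in 6 of 6 libraries. With all UMIs this held in 4 of 6. Hnf4a at 1200 UMIs was found in 37.0% to 52.6% of epithelial nuclei and in 25.7% to 47.1% of T-like and B-like nuclei. Their median depths before thinning were 1509 to 1843 and 1603 to 2824 UMIs.

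The wider pathway was described with 8 lists of 80 genes, the members included, of which 73 were tested in the sum over all epithelial nuclei. edgeR called 0 of 73 (0% of all 17093 genes), and DESeq2 called 1, Prdm1, where it called 1.85% of all genes. At an unadjusted p under 0.05, 2 were higher (5.12% of all genes were) and 3 lower in SAP (6.37% of all genes), and 5 lay wholly above (background 6.68%) and 5 wholly below CON (background 12.6%). The median log2 fold change of these genes was 0.03. By list, the median was −0.13 for the 4 receptors, −0.35 for the 4 ligands tested, 0.28 for 9 genes of receptor cleavage, 0.11 for 11 modulators such as the Fringe enzymes, and 0.09 for 8 nuclear partners. It was −0.42 for the 4 target genes tested, −0.24 for 18 secretory factors and 0.17 for 15 absorptive factors.

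The largest of these differences was in Prdm1, which encodes BLIMP1, a repressor that marks the immature intestine and is also used in plasma cells. Prdm1 was at 12.7, 17.4 and 36.7 CPM in CON and at 76.7, 73.1 and 52.9 CPM in SAP, with a log2 fold change of 1.598 ± 0.410 (edgeR adjusted p 0.391, DESeq2 adjusted p 0.0263). Its level was highest in enterocyte-like nuclei, at 123 CPM, against 44.2 CPM in B-like nuclei. Furin, the protease that cuts Notch receptors on their way to the surface, was at 50.8, 30.6 and 41.2 CPM against 72.7, 112 and 52.1 CPM (0.95 ± 0.33, edgeR adjusted p 0.393). Mfng, a Fringe glycosyltransferase, Aph1b, a gamma-secretase subunit, and Maml1, a coactivator of the Notch complex, also lay wholly above CON in SAP, with estimates of 1.12 ± 0.50, 0.59 ± 0.48 and 0.25 ± 0.24.

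Wholly below CON were Neurl1, Gata6, Adam17 and Spen beside Notch1. Neurl1, a ubiquitin ligase that acts on Notch ligands, was at 73.2, 105 and 78.3 CPM in CON and at 55.4, 42.7 and 44.9 CPM in SAP (−0.85 ± 0.23, edgeR adjusted p 0.391). Gata6, a factor of crypt and enterocyte programmes, was at 172, 228 and 181 CPM against 124, 108 and 145 CPM (−0.62 ± 0.21, edgeR adjusted p 0.391). Adam17, a protease that can cut Notch receptors, and Spen, a corepressor of RBPJ, had smaller estimates of −0.28 ± 0.20 and −0.13 ± 0.17.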

How the data were processed

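UMI counts per gene and nucleus were made by the authors with dnbc4tools (v2.1.3) and were deposited as raw counts without normalization. The submitters' processing notes name Seurat 4.3.0 and mRatBN7.2; promoter sequences here come from RefSeq GRCr8. The study's quality limits were applied: no fewer than 1200 UMIs or 500 genes in a nucleus, and no more than 5% of its UMIs mitochondrial. Scrublet's automatic limit marked 0 nuclei, so doublets were not removed in the main values. Clusters were built from 2000 variable genes (members, listed genes, defensin, Reg3, RT1 and mitochondrial genes left out), 30 principal components, Harmony (at most 4 rounds) and Seurat 5.3.0 Louvain at resolution 0.8. Harmony was a reimplementation of the algorithm and not the published package. Louvain replaced the planned Leiden algorithm, whose first runs merged T and B nuclei, before the members' values by class were seen. Clusters were named from marker lists (score at least 0.5, lead at least 0.8, at least 3 markers detected); cluster 9 was kept apart from Paneth-like nuclei by a limit set after the clusters were seen.

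UMIs were summed per rat and tested with edgeR 4.0.16 (filterByExpr, TMM, quasi-likelihood F-test, Benjamini-Hochberg over all genes of a fit) in R 4.3.3; groups with at least 10 nuclei in every library were fitted. Single values were tested with an exact permutation test. P-values set the difference between the groups against the spread between these 6 rats, with the rats treated as independent in the main fits. The scripts were tested on simulated data. The members and gene lists were chosen with earlier results of these data known. Named are all members, the listed genes whose groups did not overlap in the epithelial sum or that were called, and the 3 genes most like each member. DESeq2 (1.42.0), library totals, no filter, a replicate block, leaving out each library, doublet, mitochondrial, depth class, resolution, integration and naming settings were tried as alternatives. Cluster 9 counted as Paneth-like and the 4 deeper libraries alone were added as alternatives after seeing the data. Same-numbered rats deviated together from their group means over all nuclei (r = 0.63, 0.23 and 0.47) and less clearly over epithelial nuclei (0.63, 0.086 and 0.36); the labels state no pairing.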

Additional observations from a re-analysis of the deposited data

How the results depend on the processing

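Of the 10 members, 0 were called in the sums over all nuclei and over all epithelial nuclei under every alternative run. These included DESeq2 in place of edgeR, a 1% mitochondrial limit, removal of the top doublet scores and each left-out library. The 1% limit kept 6642 of 9246, 6176 of 6260 and 7924 of 8414 nuclei in CON replicates 1, 2 and 3. In SAP it kept 384 of 3189, 1908 of 5968 and 6825 of 7893. Since the main edgeR fits of both sums called 0% of all genes, 0 calls of members do not show stability. Over the single classes 1 pair was called when every gene with a count was kept (Notch1 in cluster 1, edgeR adjusted p 0.0259). That setting also called 3 listed genes: Neurl1 in cluster 9 (0.00940), Gata6 in cluster 1 (0.0258) and Nr5a2 in SMC-like nuclei (0.0329). The share of all genes called under that setting is not given here. Among the listed genes of the epithelial sum DESeq2 called 1 (Prdm1), which it also called over all nuclei (adjusted p 0.0344). In stem/TA-like nuclei DESeq2 called Notch4 (adjusted p 0.0102). Of all genes, DESeq2 called 1.85% in the epithelial sum, 1.12% over all nuclei and 0.754% in stem/TA-like nuclei. The cause of the calls under these settings was not tested. Of 402 recomputed single estimates, 399 kept their direction and call, and 2 turned direction without SAP replicate 2: Hnf4a to −0.0020 and Cdx2 to −0.0027, in ranges over left-out libraries that reached 0.31 and 0.41. Notch1 over all epithelial nuclei ranged from −1.15 to −0.55 (edgeR adjusted p 0.232 to 0.9498) and Hes1 from 0.23 to 0.57 (0.386 to 0.9498). Over left-out libraries alone, Jag1 ranged from −0.94 (without SAP replicate 3) to −0.063 (without SAP replicate 2), Notch2 from −0.73 to −0.077 without the same libraries, and Dll4 from −0.99 (without SAP replicate 3) to −0.42 (without CON replicate 1). Dll1 ranged from −0.53 (without CON replicate 3) to −0.12 (without SAP replicate 2), Atoh1 from −1.03 (without SAP replicate 1) to −0.21 (without CON replicate 1) and Gfi1 from −1.12 (without CON replicate 3) to −0.55 (without CON replicate 2). Without integration, 4 of 10 members kept their highest named class, while Notch1, Notch2, Dll4, Jag1, Hes1 and Cdx2 did not. Endothelial-like nuclei were then highest for Notch1 (173 CPM), Jag1 (27.4 CPM) and Hes1 (41.3 CPM). For Notch2, Dll4 and Cdx2 these were SMC-like, enterocyte-like and enteroendocrine-like nuclei. At resolution 0.4 Notch1 moved to endothelial-like nuclei (170 CPM), and with cluster 9 counted as Paneth-like, Dll4 and Gfi1 moved to Paneth-like nuclei (56.0 and 61.2 CPM). With SAP class shares as weights, 2 members did not overlap in place of 1; leaving out each library gave 1 to 6, where 14.8% to 28% of all genes did not overlap. With all UMIs in place of 1200, 1 member did not overlap in its share of nuclei in place of 2; leaving out each library gave 2 to 7, where 17.9% to 34.9% of all genes did not. The highest counts of both came without SAP replicate 3. With the replicate number as a block (pairing), 0 of 10 members were called and Notch1 over all epithelial nuclei was −0.88 (edgeR adjusted p 0.342); the block changed no call. Dll1, Atoh1 and Gfi1, with 1157 to 1996 UMIs in all, are the members most limited by depth.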

Other observations

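The factors of the later secretory branches, which were left out of the clustering, were read by class after their values were seen. Pou2f3, the tuft cell factor, was at 749 CPM in tuft-like nuclei (mean of 6 libraries), against 42.4 CPM in the next group, cluster 12. The enteroendocrine factors Pax6 and Neurod1 were at 179 and 97.1 CPM in enteroendocrine-like nuclei, with next levels of 6.69 and 9.74 CPM. Spdef, which acts downstream of Atoh1 in goblet and Paneth maturation, was at 868 CPM in goblet-like nuclei and 453 CPM in cluster 9, and Creb3l4 at 416 and 304 CPM in the same groups. Rbpj, the DNA-binding partner of the Notch receptors, was highest in macrophage-like nuclei, at 361 CPM, where Notch2 also had its highest level among the named classes fitted. These levels are a description of the classes without a test.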
